A study of Homo sapiens with 27 samples.

Results

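Type I interferon stimulated genes are genes that cells switch on when type I interferons, or the sensors that call for them, are engaged. The set followed here had 42 listed genes, chosen by name and with earlier results of these data known. Shares of called members below are therefore not those of a list drawn up without the data. A gene was measured where the platform annotation gave it a probe set naming no other gene. By that rule 41 of the 42 were measured, by 54 probe sets, out of 11963 genes measured in the same way. STAT2, the remaining listed gene, was not analysed here. Each gene was represented by its probe set with the highest mean level, and 10 of the 41 had more than 1 probe set to choose from.

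The cells were MDA-MB-231, an established human line of mesenchymal, basal type from a breast cancer, grown in DMEM with fetal bovine serum, and their total RNA was read on Affymetrix human gene expression arrays. The 3 treatments were the DMSO vehicle, 50 µM 5SGlcNAc, which inhibits O-GlcNAc transferase (OGT), and 25 µM Thiamet-G, which inhibits O-GlcNAcase (OGA). OGT adds the sugar O-GlcNAc to proteins and OGA takes it off. A first set of 18 arrays had 1 array per treatment at 0, 2, 4, 6, 8 and 24 h, so that each treatment formed 1 time series with its own 0 h array, and a second set of 9 arrays had 3 per treatment at 48 h. All groups shared the line and the medium. Whether the replicates of 48 h came from different cultures is not stated. Each p-value of a comparison within 48 h thus reflects the spread among those arrays, possibly a technical one. At 0 to 24 h there were no replicates, with 1 array per treatment and time. There, p-values for times reflect how far the 3 differently treated series departed from a shared course. Those for inhibitor effects reflect how far the effects varied over the 5 times of 2 to 24 h. With so few arrays, the estimates of both sets are imprecise. All levels are log2 values made with RMA, a method that equalises the arrays processed together, and the 48 h arrays carried a different scale (array medians 7.68 to 7.76) from the arrays of 0 to 24 h (7.43 to 7.53). Levels of the 2 sets were therefore not compared.

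Interferons bind receptors at the cell surface and activate a complex of transcription factors, STAT2 and IRF9 among them, that binds a promoter element called the interferon stimulated response element. The same element can be bound by IRF3 and IRF7 when RNA or DNA sensors such as RIGI, IFIH1 and IFI16 are engaged, so part of the programme, the IFIT genes among them, can be induced without secreted interferon. The products block viral entry, translation or RNA stability, tag proteins with the ubiquitin-like ISG15, or load antigens for T cells. Triple-negative breast cancer lines are known for a range of basal interferon signalling without infection.

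The studied line's own markers stood high and those of blood cells low. All 10 genes of a list for mesenchymal basal breast cells were above the level of the median gene, 7 of 12 luminal epithelial genes were, and of 13 haematopoietic genes 10 were measured and 0 were above it. Array brightness also depends on the probes, so these ranks are a rough check. As signs of RNA quality, the 3' minus 5' difference of the ACTB control probe sets was 0.15 to 0.39 in the 9 arrays of 48 h and 0.42 to 0.95 in 16 of the 18 earlier arrays. At 4 h it reached 1.64 with DMSO and 1.24 with Thiamet-G. Both arrays lie in the time window of the early rise, and the rises and counts that use them are also given without them.

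The promoters of the members hold letters of the response element in a larger share than those of other genes, and the sequences are shown for genes that moved at both early and late times, with BST2 as a gene that moved late. RefSeq promoter windows (GRCh38.p14) of 300 bases, 250 before and 50 after a start, were matched by symbol for 34 of the 41 members; IFIT2, IRF7, MX2, OAS2, OASL, TRIM22 and USP18 had no entry. The motif of 10 letters, GAAA, any 2 bases and again GAAA, was searched on both strands, where the other strand reads TTTC, any 2 bases and TTTC, and overlapping matches were each counted. A match lay in at least 1 window of 23 of the 34 members (67.65%), against 395 of 9563 measured genes with an entry (4.13%) and 3.57% of all 35116 windows. The 200 bases before the start are printed 5' to 3' on the gene's strand, with the matched letters in capitals.
IFIT1, chr10:89392423-89392622, plus strand: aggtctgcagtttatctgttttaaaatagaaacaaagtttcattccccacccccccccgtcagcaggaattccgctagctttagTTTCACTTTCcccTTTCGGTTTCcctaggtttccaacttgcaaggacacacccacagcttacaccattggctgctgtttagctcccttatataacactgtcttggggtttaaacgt
IFIT3, chr10:89332329-89332528, plus strand: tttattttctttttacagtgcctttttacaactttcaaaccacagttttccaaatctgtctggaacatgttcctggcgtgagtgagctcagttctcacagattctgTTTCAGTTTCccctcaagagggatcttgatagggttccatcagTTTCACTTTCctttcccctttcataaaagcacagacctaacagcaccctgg
ISG15, chr1:1013297-1013496, plus strand: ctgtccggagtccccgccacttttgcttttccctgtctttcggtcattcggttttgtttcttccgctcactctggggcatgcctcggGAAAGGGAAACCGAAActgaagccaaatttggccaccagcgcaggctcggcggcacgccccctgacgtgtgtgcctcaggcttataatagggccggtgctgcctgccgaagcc
HERC5, chr4:88456919-88457118, plus strand: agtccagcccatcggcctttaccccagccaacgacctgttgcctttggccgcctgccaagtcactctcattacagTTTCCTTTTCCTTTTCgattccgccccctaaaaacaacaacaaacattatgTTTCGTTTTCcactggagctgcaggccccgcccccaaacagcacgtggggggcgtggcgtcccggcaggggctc
IFIH1, chr2:162318685-162318884, minus strand: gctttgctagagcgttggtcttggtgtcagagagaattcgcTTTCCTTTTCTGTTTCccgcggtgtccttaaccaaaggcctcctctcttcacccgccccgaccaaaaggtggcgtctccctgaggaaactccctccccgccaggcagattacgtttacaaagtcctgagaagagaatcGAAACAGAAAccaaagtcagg
BST2, chr19:17405631-17405830, minus strand: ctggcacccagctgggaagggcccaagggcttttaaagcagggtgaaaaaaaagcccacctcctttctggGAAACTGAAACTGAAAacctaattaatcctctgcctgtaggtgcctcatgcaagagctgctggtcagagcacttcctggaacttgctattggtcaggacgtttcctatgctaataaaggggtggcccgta
IFIT1 and IFIT3 each show 2 separate matches, the pair in ISG15 and the pair in BST2 overlap, and HERC5 and IFIH1 show 3 each with 1 overlapping pair. IFIT3 has 2 starts in the table, and the sequence of 1 of them is shown. A match describes the letters and is no measure of binding.

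Early in the time courses a compact group of members rose in all 3 series, the vehicle series included. The mean of 4, 6 and 8 h was higher than 0 h for 10 of 41 members, while 3.18% of all genes were called higher, and lower for 3 members (PSMB9, PARP12 and SP110), while 2.98% of all genes were called lower. The test was limma with the series as a block and Benjamini-Hochberg adjustment over 11963 genes at 0.05. In a fit of every probe set, no SP110 probe set was called (brightest -0.21, limma adjusted p = 0.0588). A second probe set of the member GBP1 was called lower there, at -0.38. The 10 were the antiviral IFIT1, IFIT2, IFIT3 and OASL, the RNA sensor IFIH1, the ISG15 system genes ISG15, HERC5, HERC6 and USP18, and IFI44. IFIT1 had the highest rise of all 11963 genes, OASL ranked 3, IFIT2 5, IFIH1 7 and IFIT3 8. The rise did not run through the whole set: the median over the 41 members was 0.01 on the log2 scale, beside 0.01 over all genes, and 19 members were higher in all 3 series, a pattern that 23.1% of all genes showed, and 12 were lower in all 3, as were 20.2% of all genes.

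IFIT1 binds RNA whose 5' end lacks the methyl marks of host messages and keeps it from being translated. Levels at each time are given in the order DMSO, 5SGlcNAc and Thiamet-G series, 1 array each. IFIT1 read 8.12, 8.15 and 8.09 at 0 h, 8.23, 8.83 and 8.72 at 2 h, 10.54, 10.35 and 9.29 at 4 h, 10.17, 10.86 and 10.28 at 6 h, 9.54, 9.42 and 9.91 at 8 h, and 9.35, 9.27 and 9.54 at 24 h. It left its 0 h level in all series by 4 h, stood highest at 4 h with DMSO and at 6 h with either inhibitor, and remained above every 0 h array at 24 h. The rise was 1.92 (SE 0.21, 3.78-fold, limma adjusted p = 0.000361). By series it was 1.96, 2.06 and 1.74.

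IFIT2 and IFIT3 encode partners that form complexes with IFIT1. IFIT2 read 7.63, 7.69 and 7.84 at 0 h, 7.89, 8.32 and 7.82 at 2 h, 9.60, 9.40 and 8.55 at 4 h, 8.89, 9.52 and 8.81 at 6 h, 8.14, 7.91 and 8.22 at 8 h, and 7.97, 7.95 and 8.16 at 24 h. IFIT3 read 9.32, 9.33 and 9.45 at 0 h, 9.58, 9.76 and 9.66 at 2 h, 10.99, 10.79 and 9.89 at 4 h, 10.26, 10.93 and 10.46 at 6 h, 9.88, 9.80 and 10.02 at 8 h, and 9.73, 9.40 and 9.92 at 24 h. Both peaked at 4 h with DMSO and at 6 h with the inhibitors and at 8 h were well under those peaks in the DMSO and 5SGlcNAc series. IFIT2 rose by 1.06 (SE 0.18, 2.09-fold, limma adjusted p = 0.00297). IFIT3 rose by 0.97 (SE 0.18, 1.95-fold, limma adjusted p = 0.00668). The series gave 1.25, 1.26 and 0.69 for IFIT2 and 1.06, 1.17 and 0.66 for IFIT3.

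OASL, an OAS relative without synthetase activity that enhances RIG-I signalling, followed the same course. OASL read 7.29, 7.28 and 7.28 at 0 h, 7.68, 7.72 and 7.63 at 2 h, 9.39, 8.98 and 8.17 at 4 h, 8.69, 9.56 and 8.89 at 6 h, 8.08, 8.05 and 8.36 at 8 h, and 7.78, 7.95 and 8.06 at 24 h. Its 9 arrays of 4, 6 and 8 h lay between 8.05 and 9.56, all above the highest 0 h level of 7.29. OASL rose by 1.40 (SE 0.19, 2.64-fold, limma adjusted p = 0.00107), with 1.43, 1.58 and 1.20 in the 3 series. A second, dimmer OASL probe set on these arrays also rose, by 1.06.

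Of the sensors, IFIH1 (MDA5, which detects long double-stranded RNA) rose and RIGI and IFI16 were not called. IFIH1 read 6.32, 6.31 and 6.28 at 0 h, 6.74, 6.52 and 6.44 at 2 h, 7.85, 7.51 and 6.74 at 4 h, 7.23, 7.94 and 7.39 at 6 h, 6.95, 6.62 and 7.23 at 8 h, and 6.49, 6.14 and 6.71 at 24 h. IFIH1 peaked at 4 h with DMSO and at 6 h with the inhibitors, and in the 5SGlcNAc series it was back under its 0 h level by 24 h. The rise was 0.97 (SE 0.20, 1.96-fold, limma adjusted p = 0.0102). A second, much dimmer IFIH1 probe set (mean level 3.89) was not called, at 0.11 (limma adjusted p = 0.705 in a fit of every probe set). RIGI differed by -0.09 (95% interval -0.27 to 0.09, limma adjusted p = 0.620) and IFI16, a DNA sensor, by -0.02 (95% interval -0.14 to 0.10, limma adjusted p = 0.890).

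In the ISG15 system 4 of 5 members rose: the modifier ISG15 itself, the ligase HERC5 and its relative HERC6, and USP18, the enzyme that removes ISG15 and restrains the interferon receptor. ISG15 read 9.99, 9.91 and 9.94 at 0 h, 9.97, 10.22 and 10.09 at 2 h, 10.85, 10.63 and 10.12 at 4 h, 10.34, 10.75 and 10.43 at 6 h, 10.25, 10.28 and 10.48 at 8 h, and 10.51, 10.24 and 10.40 at 24 h. HERC5 read 9.83, 9.76 and 9.80 at 0 h, 10.03, 9.95 and 9.91 at 2 h, 10.54, 10.42 and 10.04 at 4 h, 10.32, 10.67 and 10.39 at 6 h, 10.36, 10.26 and 10.38 at 8 h, and 10.30, 10.25 and 10.33 at 24 h. ISG15 rose by 0.51 (SE 0.12, 1.43-fold, limma adjusted p = 0.0211). HERC5 rose by 0.58 (SE 0.08, 1.49-fold, limma adjusted p = 0.00154), and like IFIT1 and IFI44 it was still called higher at 24 h. USP18 rose by 0.38 and HERC6 by 0.24. In the DMSO, 5SGlcNAc and Thiamet-G series the rise was 0.39, 0.65 and 0.10 for USP18 and 0.24, 0.32 and 0.15 for HERC6. UBE2L6, the conjugating enzyme, differed by -0.10 (95% interval -0.23 to 0.02, limma adjusted p = 0.371).

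IFI44, a cytoplasmic protein of little known mechanism, rose by 0.70 (SE 0.09, 1.63-fold, limma adjusted p = 0.000607). IFI44 read 8.67, 8.60 and 8.62 at 0 h, 8.74, 8.73 and 8.87 at 2 h, 9.37, 9.33 and 8.90 at 4 h, 9.44, 9.57 and 9.46 at 6 h, 9.21, 9.24 and 9.44 at 8 h, and 9.22, 9.14 and 9.32 at 24 h. It stood highest at 6 h in all 3 series, and at 24 h every array was above every 0 h array. A second, dimmer IFI44 probe set also rose at 4 to 8 h, by 0.83.

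**Figure D1:**
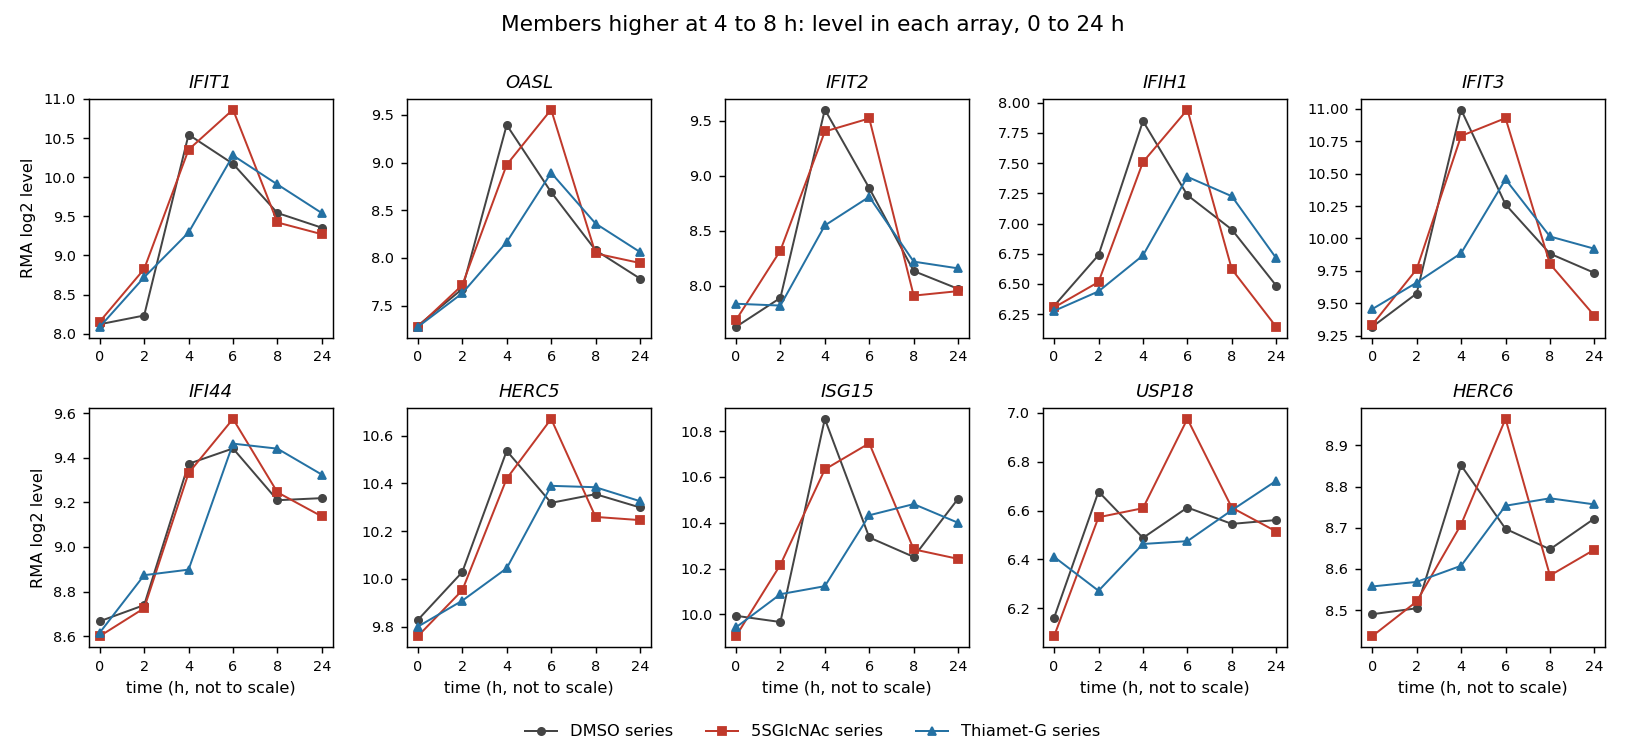
RMA log2 level (vertical axes) against time in hours (horizontal axes, not to scale) for the 10 members higher at 4 to 8 h, with 1 array per point and a line for each treatment series. Of these genes, 8 peak at 4 h in the DMSO series, all 10 at 6 h in the 5SGlcNAc series and 7 at 6 h in the Thiamet-G series.

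The series differed in timing and size only as single arrays show it, with no test. In the DMSO series 8 of the 10 genes were highest at 4 h, with USP18 at 2 h and IFI44 at 6 h. In the 5SGlcNAc series all 10 were highest at 6 h, and in the Thiamet-G series 7 at 6 h, 2 at 8 h and USP18 at 24 h. Without the arrays of 4 h, the DMSO series had 6 of the 10 highest at 6 h, and the counts of the other series were as before. With all 3 times, the rise was smallest in the Thiamet-G series for all 10 genes, but this order rested on the 4 h arrays. The mean of 6 and 8 h alone, chosen after seeing the data, put Thiamet-G above DMSO for 8 of the 10, with IFIT1 at 2.00 against 1.74 and IFIH1 at 1.03 against 0.77, and below it for IFIT2 and USP18. Over 4 to 8 h, 6 members were over 0.5 in the Thiamet-G series, against 8 with DMSO and 9 with 5SGlcNAc, where 0.485%, 0.46% and 0.393% of all genes did so. The mean effect of each inhibitor over the 5 times of 2 to 24 h, with time as a block, gave 0 called members and 0 called genes of 11963 by limma for either inhibitor (0% of all genes in each direction). At an unadjusted p under 0.05 there were 1 member and 524 genes for 5SGlcNAc, and 4 members and 1111 genes for Thiamet-G. For IFIT1 the 5SGlcNAc effect was 0.18 (95% interval -0.28 to 0.64, limma adjusted p = 0.9996) and the Thiamet-G effect -0.02 (95% interval -0.48 to 0.44, limma adjusted p = 0.989), so effects of these sizes in either direction were not resolved.

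Time by time, 0 of 41 members were called against 0 h at 2 h, where 0.209% of all genes were called higher and 0.301% lower, and 1 member had an unadjusted p under 0.05. At 4 h 8 were higher (1.33% of all genes) and 0 lower (1.95%), namely the 10 early genes without HERC6 and USP18. At 6 h 10 were higher (2.27%) and PSMB9 and PARP12 lower (2.22%). At 8 h 4 were still higher (3.87%), namely IFIT1, OASL, HERC5 and IFI44, and PSMB9, PSMB8 and IFI35 were lower (2.49%). IFIT1 was higher than at 0 h by 1.94 at 4 h, 2.32 at 6 h and 1.50 at 8 h.

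The count of 10 at 4 to 8 h rested on few 0 h arrays. It was 5 without the DMSO array of 0 h and 5 without the 5SGlcNAc array of 0 h, and 8 without both 4 h arrays of high ACTB difference. Without those 2 arrays the rises were 1.99 for IFIT1, 1.42 for OASL, 1.11 for IFIT2, 1.04 for IFIT3, 1.04 for IFIH1, 0.76 for IFI44, 0.61 for HERC5 and 0.54 for ISG15, with limma adjusted p up to 0.0113, and HERC6 and USP18 lost their call. IFIT1 and OASL kept their call in all 31 alternatives, with adjusted p up to 0.0463, while ISG15 lost it in 6, IFIH1 and IFIT3 in 4, IFIT2 in 2, and IFI44 and HERC5 in 1. PSMB9 lost its call as lower in 11. The 3 lower members became 0 or 1 without any 1 of 12 of the 18 arrays and 5 without the 5SGlcNAc array of 24 h. With only 2 series in the fit, the 10 higher members became 2 without the DMSO series and 4 without the 5SGlcNAc series. At 4 to 8 h 5 of 12 luminal markers were lower and 0 higher, with list means of 8.30 to 8.61 over the 18 arrays, and of the 10 mesenchymal and 10 haematopoietic markers 0 were called; their part in the result was not tested. In bulk RNA, fewer cells of a type and less RNA per cell cannot be told apart. The count of 8 at 4 h was 3 without the DMSO or the 5SGlcNAc array of 4 h and 3 to 4 without their 0 h arrays, and the count of 10 at 6 h was 5 without the DMSO array of 0 h or the 5SGlcNAc array of 6 h. The 8 at 4 h became 5 without both 4 h arrays of high ACTB difference, and the 4 at 8 h became 2 without the Thiamet-G array of 8 h.

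By 24 h there were calls in both directions, but 28 of 41 members were not called against 0 h. The median over the members was 0.01 on the log2 scale, beside 0.01 over all genes. Against 0 h, IFIT1, IFI44 and HERC5 were still higher (3 of 41, with 4.83% of all genes called higher) and 10 were lower (5.14%). The 10 were the immunoproteasome subunits PSMB8 and PSMB9, which cut peptides for antigen display, the membrane proteins IFITM1 and BST2, which block entry and release of enveloped viruses, the factor IRF7, the DNA sensor IFI16, and IFI27, IFI35, NMI and LGALS3BP. None of these 10 had risen early. Against the mean of 4 to 8 h, 14 members were lower at 24 h (6.09%) and 3 higher (6.05%, TAP1, SP110 and GBP1); 4 of the 10 early genes, IFIT2, IFIT3, IFIH1 and OASL, were among the 14. Cell type markers also moved: against 0 h 5 of 12 luminal markers were lower and 1 higher, with 0 of 10 mesenchymal and 0 of 10 haematopoietic markers called. Against 4 to 8 h 3 of 10 mesenchymal markers (ZEB1, ANXA1 and AXL) were higher, and of the luminal markers KRT19 was higher and ERBB3 and CDH1 lower. Their part in the result was not tested.

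IFITM1, which hinders membrane fusion of incoming viruses, fell most. IFITM1 read 10.53, 10.48 and 10.49 at 0 h, 10.46, 10.48 and 10.39 at 2 h, 10.57, 10.56 and 10.39 at 4 h, 10.31, 10.46 and 10.37 at 6 h, 10.27, 10.28 and 10.34 at 8 h, and 9.94, 9.60 and 10.01 at 24 h. Its arrays stayed within a narrow range to 8 h and were lower at 24 h in every series, lowest with 5SGlcNAc. Against 0 h it fell by 0.65 (SE 0.09, 1.57-fold, limma adjusted p = 0.000407). PSMB9 read 10.40, 10.30 and 10.33 at 0 h, 10.08, 10.20 and 10.20 at 2 h, 10.32, 10.27 and 10.12 at 4 h, 9.86, 10.07 and 9.99 at 6 h, 9.83, 9.97 and 9.96 at 8 h, and 9.90, 9.47 and 9.74 at 24 h. PSMB9 was below its 0 h level at every later time in each series, and it fell by 0.64 (SE 0.10, 1.56-fold, limma adjusted p = 0.000818) at 24 h. BST2 read 9.69, 9.58 and 9.60 at 0 h, 9.56, 9.64 and 9.55 at 2 h, 9.75, 9.57 and 9.43 at 4 h, 9.39, 9.59 and 9.45 at 6 h, 9.32, 9.46 and 9.43 at 8 h, and 9.33, 8.82 and 9.25 at 24 h. BST2, known as tetherin, fell by 0.49 (SE 0.11, 1.40-fold, limma adjusted p = 0.0115). PSMB8 fell by 0.60, IFI27 by 0.53, IFI35 by 0.48, and IFI16, NMI and LGALS3BP by 0.24 each.

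Among the factors, IRF7, which amplifies type I interferon production, was called. IRF7 read 9.62, 9.68 and 9.56 at 0 h, 9.74, 9.86 and 9.62 at 2 h, 9.93, 9.79 and 9.50 at 4 h, 9.61, 9.68 and 9.62 at 6 h, 9.68, 9.59 and 9.57 at 8 h, and 9.46, 8.77 and 9.31 at 24 h. At 24 h IRF7 fell by 0.44 (SE 0.13, 1.36-fold, limma adjusted p = 0.0442), and the 5SGlcNAc array of 24 h stood apart from the other 2. IRF9 read 9.69, 9.72 and 9.65 at 0 h, 9.63, 9.58 and 9.53 at 2 h, 9.67, 9.77 and 9.43 at 4 h, 9.69, 9.66 and 9.91 at 6 h, 9.64, 9.74 and 9.59 at 8 h, and 9.46, 9.41 and 9.61 at 24 h. IRF1 read 9.49, 9.38 and 9.35 at 0 h, 9.25, 9.23 and 9.40 at 2 h, 9.31, 9.22 and 9.24 at 4 h, 9.19, 9.21 and 9.42 at 6 h, 9.24, 9.27 and 9.36 at 8 h, and 9.24, 9.14 and 9.32 at 24 h. IRF9, a DNA-binding part of the response element complex, differed from 0 h by -0.19 (95% interval -0.38 to 0.00, limma adjusted p = 0.205), and IRF1, a factor shared with interferon gamma signalling, by -0.17 (95% interval -0.31 to -0.03, limma adjusted p = 0.120).

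**Figure D2:**
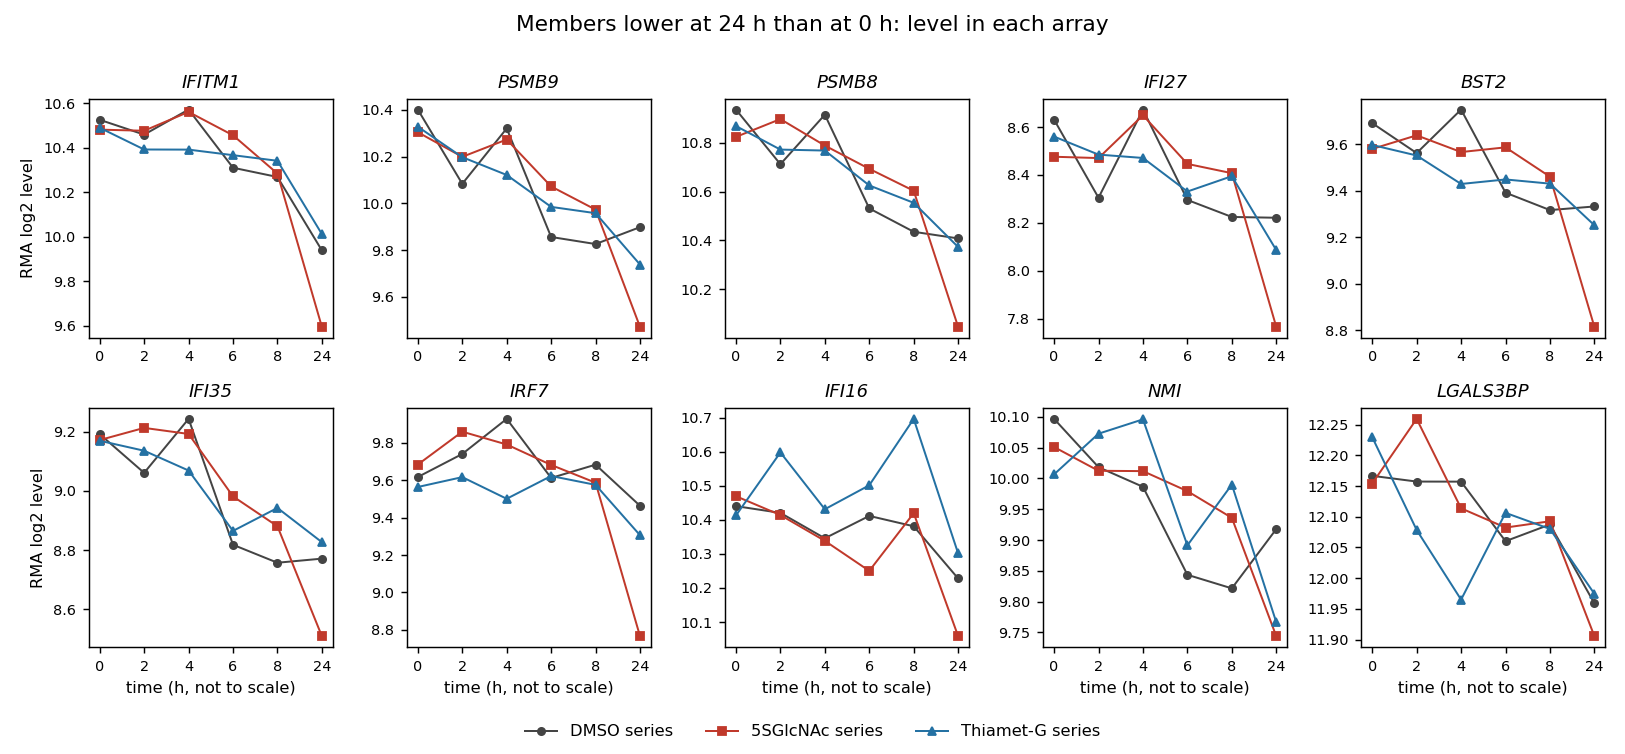
RMA log2 level (vertical axes) against time in hours (horizontal axes, not to scale) for the 10 members lower at 24 h than at 0 h, 1 array per point. The 5SGlcNAc array of 24 h is the lowest point of each panel, at 9.60 for IFITM1 and 8.77 for IRF7.

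With 1 array per treatment, the difference between treatments at 24 h has no test. The 5SGlcNAc array of 24 h was lower than the DMSO array by over 0.3 for 12 of 41 members, as it was for 9.30% of all genes, and lower at all for 35. The Thiamet-G array was lower than DMSO by over 0.3 for 0 members (4.47% of all genes). The differences of the 5SGlcNAc array were -0.70 for IRF7, -0.67 for TRIM22, -0.52 for BST2, -0.46 for IFI27 and -0.34 for IFITM1. Over all genes the array's median difference was -0.04, and after centring on it 10 members (6.98% of all genes) stayed past the same limit. The 10 called as lower at 24 h against 0 h became 6 without this array and 5 without the DMSO array of 0 h, and the 14 called against 4 to 8 h became 4 without this array and 9 without the DMSO array of 24 h. The 3 called as higher at 24 h against 0 h became 5 without the DMSO or the Thiamet-G array of 4 h.

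At 48 h, with 3 arrays a group, members were lower with 5SGlcNAc than with DMSO and none was called higher. Of 41 members 21 were lower, while 7.32% of all genes were called lower, and 0 were higher, while 2.92% were called higher (25 members had an unadjusted p under 0.05). The median member difference was -0.21 beside 0.01 over all genes. By role, all 3 sensors fell (IFIH1, RIGI and IFI16), as did 2 of 3 factors (IRF7 and IRF9), 9 of 17 direct antiviral effectors, 2 of 5 genes of the ISG15 system (ISG15 and HERC5), 2 of 3 antigen processing genes (PSMB8 and PSMB9) and 3 of 10 others (IFI35, NMI and LGALS3BP). In 26 members all 3 arrays with 5SGlcNAc were below all 3 with DMSO, which held for 18.5% of all genes, and in 0 all were above, which held for 12.7%.

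IFITM1 at 48 h read 10.38, 10.33 and 10.44 with DMSO, 9.68, 9.71 and 9.73 with 5SGlcNAc, and 10.36, 10.40 and 10.27 with Thiamet-G. The 5SGlcNAc arrays were all far below the others, and those with DMSO and Thiamet-G overlapped. IFITM1 had means of 10.38 ± 0.06 (SD, n = 3) with DMSO and 9.71 ± 0.03 (SD, n = 3) with 5SGlcNAc, and fell by 0.68 (SE 0.05, 1.60-fold, limma adjusted p = 0.000102). TRIM22 at 48 h read 6.83, 7.04 and 6.81 with DMSO, 6.47, 5.98 and 6.60 with 5SGlcNAc, and 7.22, 7.02 and 7.12 with Thiamet-G. TRIM22, a ubiquitin ligase that restricts several viruses, ranged from 5.98 to 6.60 in its 5SGlcNAc arrays, all below the DMSO arrays. It fell by 0.54 (SE 0.14, 1.46-fold, limma adjusted p = 0.0414) and lost its call in 8 of 14 alternatives.

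The 3 IFIT genes fell together. IFIT1 at 48 h read 10.39, 10.53 and 10.30 with DMSO, 9.86, 9.96 and 10.07 with 5SGlcNAc, and 10.80, 10.70 and 10.63 with Thiamet-G. IFIT2 at 48 h read 8.82, 8.78 and 8.81 with DMSO, 8.38, 8.42 and 8.43 with 5SGlcNAc, and 8.88, 8.97 and 8.96 with Thiamet-G. IFIT3 at 48 h read 10.57, 10.66 and 10.65 with DMSO, 10.03, 10.21 and 10.26 with 5SGlcNAc, and 10.74, 10.74 and 10.75 with Thiamet-G. In each, the 5SGlcNAc arrays were below every DMSO array and the Thiamet-G arrays above every DMSO array. IFIT1 fell with 5SGlcNAc by 0.44 (SE 0.08, 1.36-fold, limma adjusted p = 0.00683), IFIT2 by 0.39 (SE 0.04, 1.31-fold, limma adjusted p = 0.000605) and IFIT3 by 0.46 (SE 0.06, 1.38-fold, limma adjusted p = 0.00202). These 3 genes kept the call in all 15 alternatives.

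IRF7 at 48 h read 9.54, 9.56 and 9.63 with DMSO, 9.06, 9.10 and 9.19 with 5SGlcNAc, and 9.28, 9.28 and 9.33 with Thiamet-G. IRF7 fell by 0.46 (SE 0.05, 1.38-fold, limma adjusted p = 0.000564) with 5SGlcNAc, and it was also the 1 member called for Thiamet-G. IRF9 at 48 h read 9.75, 9.84 and 9.80 with DMSO, 9.58, 9.67 and 9.56 with 5SGlcNAc, and 9.75, 9.82 and 9.83 with Thiamet-G. IRF1 at 48 h read 9.47, 9.53 and 9.47 with DMSO, 9.35, 9.37 and 9.38 with 5SGlcNAc, and 9.63, 9.53 and 9.54 with Thiamet-G. IRF9 fell by 0.19 (SE 0.05, 1.14-fold, limma adjusted p = 0.0312), a call lost in 6 of 15 alternatives. IRF1 differed by -0.12 (95% interval -0.22 to -0.03, limma adjusted p = 0.103), although its 5SGlcNAc arrays were all below the DMSO arrays.

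IFIH1 at 48 h read 6.92, 7.09 and 7.05 with DMSO, 6.43, 6.58 and 6.78 with 5SGlcNAc, and 7.19, 6.92 and 6.95 with Thiamet-G. BST2 at 48 h read 9.58, 9.61 and 9.74 with DMSO, 9.22, 9.25 and 9.28 with 5SGlcNAc, and 9.64, 9.72 and 9.64 with Thiamet-G. PSMB9 at 48 h read 9.83, 9.92 and 9.84 with DMSO, 9.36, 9.42 and 9.63 with 5SGlcNAc, and 9.80, 9.87 and 9.86 with Thiamet-G. In all 3 genes the 5SGlcNAc arrays lay below both other groups, which overlapped. IFIH1 fell by 0.42 (SE 0.10, 1.34-fold, limma adjusted p = 0.0269), a call lost in 6 of 14 alternatives. BST2 fell by 0.39 (SE 0.05, 1.31-fold, limma adjusted p = 0.00200) and PSMB9 by 0.39 (SE 0.07, 1.31-fold, limma adjusted p = 0.00714), and both kept the call in all 15.

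ISG15 at 48 h read 10.96, 11.07 and 11.03 with DMSO, 10.75, 10.81 and 10.84 with 5SGlcNAc, and 11.01, 11.14 and 11.04 with Thiamet-G. HERC5 at 48 h read 10.93, 10.90 and 10.99 with DMSO, 10.65, 10.69 and 10.72 with 5SGlcNAc, and 10.91, 10.88 and 10.87 with Thiamet-G. The 5SGlcNAc arrays of both genes were again the lowest, with small differences. ISG15 fell by 0.22 (SE 0.05, 1.16-fold, limma adjusted p = 0.0248), a call lost in 5 of 15 alternatives, and HERC5 by 0.25 (SE 0.04, 1.19-fold, limma adjusted p = 0.00556). The other falls were OAS3 by 0.37, PSMB8 by 0.36, OAS2 by 0.33, IFI35 by 0.29, RIGI by 0.28, IFI16 by 0.27, LGALS3BP by 0.26, ISG20 by 0.22 and NMI by 0.21. OAS2 and OAS3 make the 2'-5' oligoadenylates that activate RNase L, and ISG20 is an exonuclease.

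Several well known members were not called at 48 h. Between 5SGlcNAc and DMSO, 5 members differed by more than 0 and 35 by less. RSAD2 had the largest difference above 0, at 0.21 (95% interval -0.06 to 0.49, limma adjusted p = 0.315). By mean level at 48 h OAS1 and RSAD2 were dim, at percentiles 15.5 and 20.8 of all genes. MX1 stood at 33.4, near the called IFIH1 at 32.9, and TAP1 at 70.3. Whether low signal hid a change in OAS1 or RSAD2 was not tested. MX1 at 48 h read 6.87, 6.91 and 6.86 with DMSO, 6.86, 6.90 and 6.89 with 5SGlcNAc, and 7.05, 6.96 and 6.98 with Thiamet-G. OAS1 at 48 h read 5.42, 5.51 and 5.51 with DMSO, 5.46, 5.55 and 5.51 with 5SGlcNAc, and 5.79, 5.51 and 5.58 with Thiamet-G. MX1, a GTPase that traps viral nucleocapsids, differed between 5SGlcNAc and DMSO by 0.00 (95% interval -0.09 to 0.09, limma adjusted p = 0.973), and OAS1 by 0.03 (95% interval -0.13 to 0.18, limma adjusted p = 0.845). The intervals of TAP1, the peptide transporter, and of USP18 also spanned 0, at 0.01 (95% interval -0.09 to 0.10, limma adjusted p = 0.940) and 0.08 (95% interval -0.08 to 0.24, limma adjusted p = 0.516). MX1 read 6.49, 6.62 and 6.38 at 0 h, 6.66, 6.54 and 6.52 at 2 h, 6.81, 6.68 and 6.47 at 4 h, 6.59, 6.80 and 6.68 at 6 h, 6.62, 6.47 and 6.65 at 8 h, and 6.22, 6.46 and 6.45 at 24 h. OAS1 read 5.12, 5.23 and 5.29 at 0 h, 5.03, 5.35 and 5.21 at 2 h, 5.27, 5.16 and 5.27 at 4 h, 5.49, 5.46 and 5.08 at 6 h, 5.43, 5.11 and 5.38 at 8 h, and 5.30, 5.36 and 5.29 at 24 h. In the time courses neither was called: against 0 h the means of 4 to 8 h differed by 0.15 (95% interval -0.02 to 0.32, limma adjusted p = 0.327) and 0.08 (95% interval -0.12 to 0.28, limma adjusted p = 0.706).

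For OASL and 3 of the called members the probe sets disagreed. In the fit of every probe set, a further probe set was not called for OAS2 (0.13), IFIH1 (-0.13) and IFI16 (-0.22), while another of IFI16 was lower at -0.42. OASL at 48 h read 8.41, 8.46 and 8.44 with DMSO, 8.12, 8.39 and 8.18 with 5SGlcNAc, and 8.52, 8.68 and 8.58 with Thiamet-G. On this brighter probe set the difference was -0.21 (95% interval -0.37 to -0.05, limma adjusted p = 0.103), whereas a second probe set, the brighter at 0 to 24 h, was called lower with a difference of -0.57 (limma adjusted p = 0.00292 in a fit of every probe set). IFI44 at 48 h read 9.39, 9.43 and 9.40 with DMSO, 9.19, 9.28 and 9.34 with 5SGlcNAc, and 9.64, 9.49 and 9.54 with Thiamet-G. IFI44 differed by -0.14 (95% interval -0.26 to -0.02, limma adjusted p = 0.147), with every 5SGlcNAc array below every DMSO array.

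**Figure D3:**
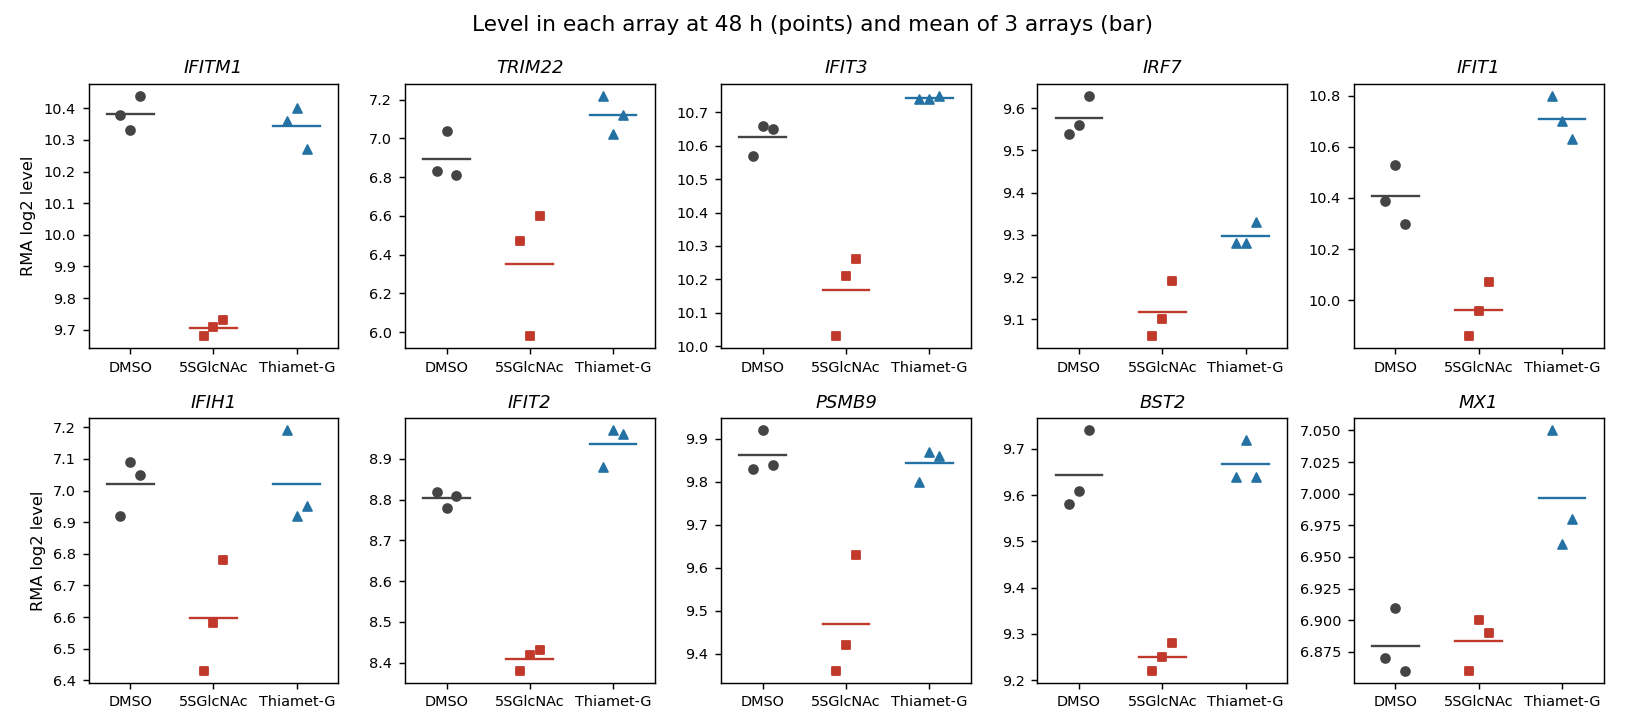
RMA log2 level (vertical axes, each panel with its own range) in the 9 arrays of 48 h for the 9 members with the largest falls and for MX1; points are arrays and bars are means of 3. The 5SGlcNAc points of the first 9 panels lie below all DMSO points, and those of MX1 (6.86 to 6.90) lie among them.

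With Thiamet-G few members passed the threshold. Against DMSO at 48 h 0 of 41 members were called higher (0.476% of all genes) and 1 lower (3.01%), IRF7, which fell by 0.28 (SE 0.05, 1.21-fold, limma adjusted p = 0.0164); 11 members had an unadjusted p under 0.05. The median was 0.08 beside -0.01 over all genes, and 30 members were above 0. In 14 members all Thiamet-G arrays were above all DMSO arrays (6.37% of all genes) and in 3 all were below (15.1%). The largest differences above 0 were 0.30 (95% interval 0.13 to 0.47, limma adjusted p = 0.0654) for IFIT1 and 0.25 (95% interval 0.11 to 0.40, limma adjusted p = 0.0695) for IFI16. The IRF7 call was lost without DMSO replicate 2, DMSO replicate 3 or Thiamet-G replicate 1, and 2 members were called higher without Thiamet-G replicate 2. Both inhibitor comparisons use the same DMSO arrays.

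Set directly against Thiamet-G, 5SGlcNAc gave 24 lower members (6.79% of all genes) and 0 higher (6.87%). All 3 arrays with 5SGlcNAc were below all 3 with Thiamet-G in 31 members (13.2% of all genes) and above in 0 (16.1%). TRIM22 was lower, with a log2 difference of -0.77 (SE 0.14, 1.71-fold, limma adjusted p = 0.00768), IFIT1 at -0.75, IFITM1 at -0.64 and IFIT3 at -0.58. Of the 21 members lower than DMSO, 19 were also lower than Thiamet-G, without LGALS3BP and RIGI. For IRF7, which was below DMSO with either inhibitor, the direct difference was -0.18 (95% interval -0.29 to -0.07, limma adjusted p = 0.0351). In the same contrast 4 of 12 luminal markers (KRT19, CLDN7, CDH1 and EPCAM) and 3 of 10 mesenchymal markers (SNAI2, CAV2 and CAV1) were lower, and of 10 haematopoietic markers LYZ was lower and CD79A higher; their part in the result was not tested.

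**Figure D4:**
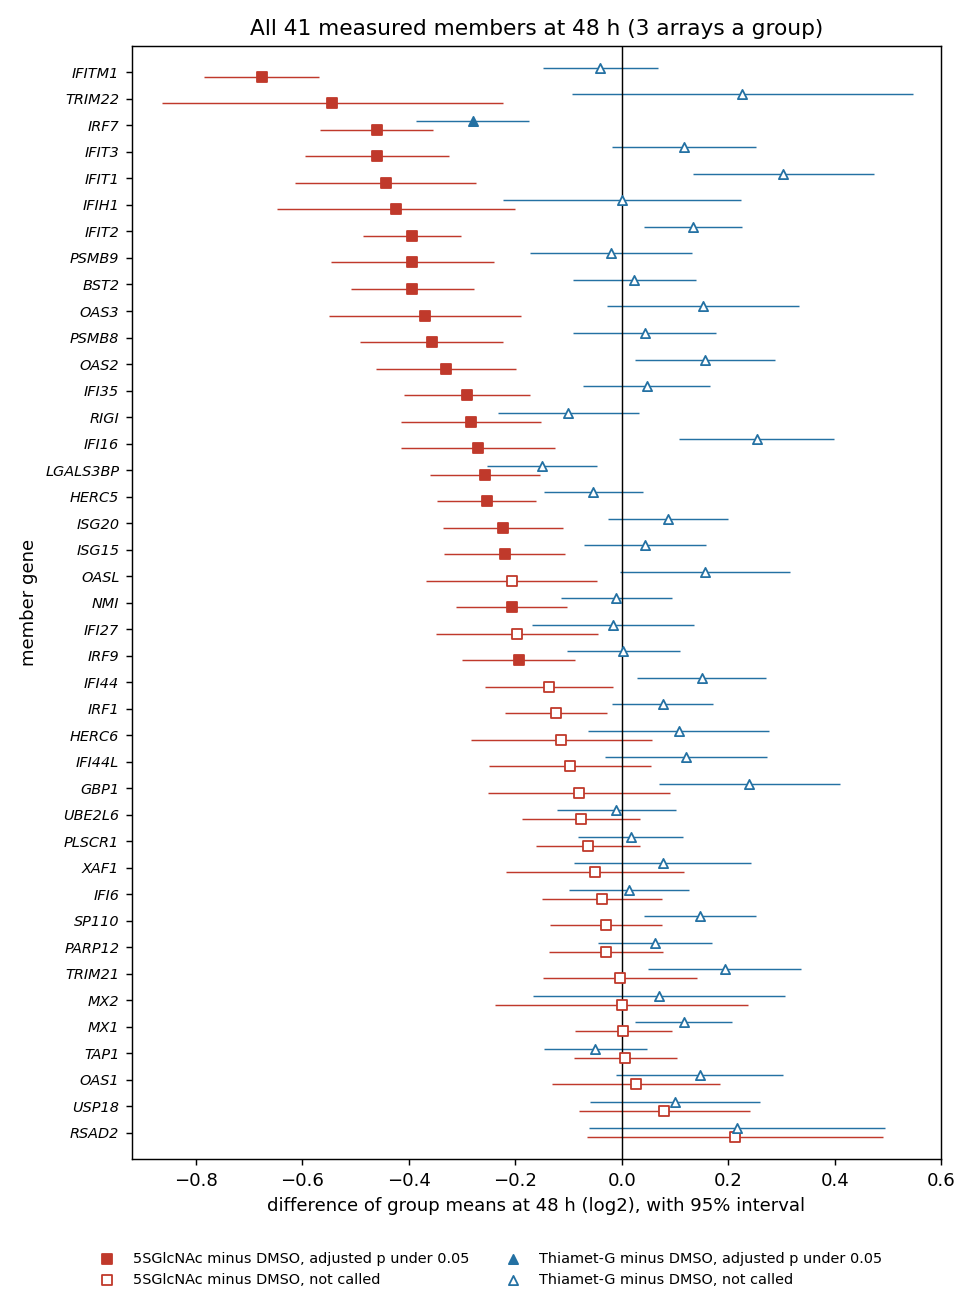
Difference of group means at 48 h on the log2 scale (horizontal axis) for the 41 measured members (vertical axis), 5SGlcNAc minus DMSO as squares and Thiamet-G minus DMSO as triangles, with 95% intervals from limma and filled symbols where the adjusted p was under 0.05. The 21 filled squares all lie left of 0, from -0.68 for IFITM1 to -0.19 for IRF9, and IRF7 has the 1 filled triangle.

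The count of 21 was sensitive to single arrays. It was 12 without the second DMSO array and 13 without the first 5SGlcNAc array, and 14 to 19 without each of the other 4 arrays of these groups. IFITM1, IFIT1, IFIT2, IFIT3, IRF7, BST2, PSMB9 and HERC5 kept their call under every alternative run. Among luminal markers 3 of 12 were lower with 5SGlcNAc at 48 h (CLDN7, KRT19 and CDH1) and 0 higher, with list means of 8.63 to 8.82 over the 9 arrays, while of the 10 mesenchymal and the 10 measured haematopoietic markers 0 were called; their part in the result was not tested.

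The late fall was not limited to genes that had risen early. Of the 10 early genes 6 were also lower with 5SGlcNAc at 48 h (IFIT1, IFIT2, IFIT3, IFIH1, HERC5 and ISG15), which is 60.0% of the early list and 28.6% of the 21. Of the 31 other members 15 were lower at 48 h. Of all genes, 7.32% were called lower in that comparison. Of the 10 members lower at 24 h than at 0 h, 9 were among the 21 (90.0% and 42.9% of the lists), and IFI27 was the exception. The arrays behind the early and 24 h lists are not those of 48 h, although all come from this line. The 24 h list rests in part on the 5SGlcNAc array of 24 h, the lowest point for each of its 10 genes. Its overlap with the 48 h list is therefore not free of the inhibitor. Of early genes with a promoter entry, 6 of 7 held a response element match (85.71%). Of those lower at 48 h, 12 of 17 did (70.59%), and of members with neither call 10 of 15 (66.67%). Over all measured genes with an entry the share was 4.13%.

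**Figure D5:**
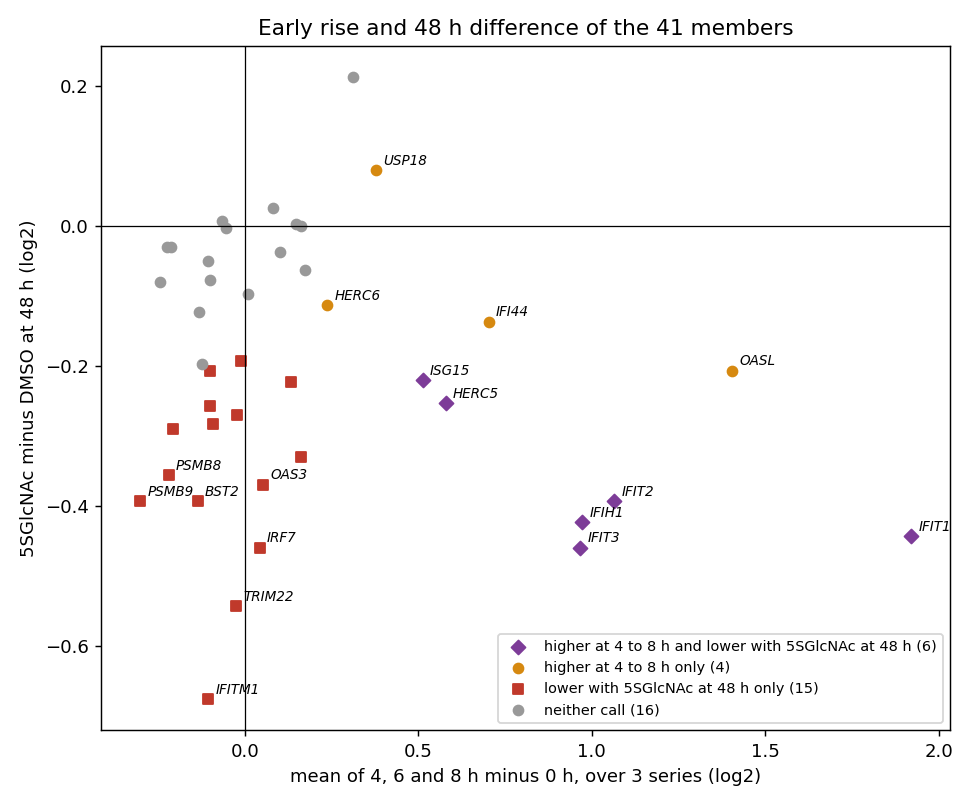
Difference of 5SGlcNAc from DMSO at 48 h (vertical axis, log2) against the mean of 4, 6 and 8 h minus 0 h over the 3 series (horizontal axis, log2) for the 41 members, coloured by call. The 6 genes with both calls lie at the lower right, IFITM1, TRIM22 and IRF7 lie low with early differences near 0, and USP18 rose early with no fall at 48 h.

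The effect of 5SGlcNAc at 48 h was also tested against its mean effect over 2 to 24 h, each measured within its own arrays. The difference was called lower for 1 of 41 members (1.41% of all genes) and higher for 0 (0.368%). The gene was IFITM1, whose effects differed by -0.64 (95% interval -0.86 to -0.43, limma adjusted p = 0.00406). With the 24 h arrays alone in place of 2 to 24 h, 0 members were called. For IFIT1 the difference was -0.62 (95% interval -1.25 to 0.00, limma adjusted p = 0.382).

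Around the members, few interferon ligand, receptor and signalling genes were called in the comparisons given here. Of 20 listed interferon ligands and receptors 19 were measured. The 14 ligands were dim, with mean levels of 3.34 to 6.25 over 0 to 24 h and 0 of 14 above the median gene, and 0 were called in any of the comparisons named here. Among the receptors IFNGR1, the interferon gamma receptor's ligand-binding chain, rose by 0.22 at 4 to 8 h, and IL10RB, shared with interferon lambda, fell by 0.25 with 5SGlcNAc at 48 h. Each was the 1 gene called of the 19. Of all genes 3.18% were called higher at 4 to 8 h and 7.32% lower at 48 h. In 27 measured genes of signalling and regulation, 1 was higher at 4 to 8 h (PTPN2, 0.22) and 1 lower (MAVS, the adaptor of RIGI and IFIH1, -0.30). These shares were near the 3.18% and 2.98% of all genes called higher and lower. With 5SGlcNAc at 48 h, 2 of the 27 fell, TLR3 by 0.21 and the receptor-associated kinase TYK2 by 0.20. That share was near the 7.32% of all genes called lower. Thiamet-G also lowered 2 of the 27, TRAF3 by 0.20 and TYK2 by 0.17, where 3.01% of all genes were called lower.

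Among 45 other measured interferon stimulated genes, 4 were higher and 2 lower at 4 to 8 h, where 3.18% and 2.98% of all genes were called. Among them were the chemokines CXCL11 at 0.57 and CXCL10 at 0.30, the antiviral ZC3HAV1 at 0.30, CSF1 at -0.35 and TRIM14 at -0.27. CXCL11 and CXCL10 were dim, with mean levels of 4.25 and 5.44 over 0 to 24 h. At 48 h 1 was higher and 6 lower with 5SGlcNAc, where 2.92% and 7.32% of all genes were called. The death ligand TNFSF10 fell by 0.67, the helicase DDX60 by 0.47, the GTPase GBP2 by 0.42 and CASP1 by 0.29, and CXCL9 was the higher gene at 0.20. Thiamet-G gave 3 higher and 1 lower, where 0.476% and 3.01% of all genes were called, with CASP1 and APOL3 at 0.34 each and GMPR at -0.26. CXCL9 and APOL3 were dim, with mean levels of 5.86 and 5.83 at 48 h.

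Genes of antigen display by MHC class I were called at 6, 8, 24 and 48 h. Of 16 measured genes 0 were called for the mean of 4, 6 and 8 h against 0 h. Taken singly, 6 h had 1 lower gene, TAP2 at -0.34, where 2.22% of all genes were called lower. At 8 h 2 were lower, PSMB10 at -0.42 and HLA-B at -0.22, where 2.49% of all genes were. At 24 h 9 were lower and 0 higher than at 0 h, where 5.14% and 4.83% of all genes were called. PSMB10, the third immunoproteasome subunit, fell by 0.91, HLA-B by 0.48, TAPBPL by 0.46, HLA-C by 0.39 and HLA-F by 0.35. HLA genes share sequence, so their probe sets may read each other's RNA. At 48 h 3 of 16 fell with 5SGlcNAc, ERAP2, which trims peptides, by 0.46, PSMB10 by 0.42 and TAPBP by 0.32, and 0 rose, beside 7.32% and 2.92% of all genes.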

How the data were processed

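RNA of 27 samples was read on arrays of 22277 probe sets. The authors deposited log2 values, and the submitters' processing notes name RMA as the method; its version is not given in the sources used here. The arrays of 0 to 24 h and of 48 h lie on different scales and were fitted apart. Of the probe sets, 19064 named 1 gene, 1043 several and 2108 none, and 62 were controls. Each of 11963 genes was taken at its probe set with the highest mean. Tests used limma 3.58.1 in R 4.3.3 (lmFit, eBayes, two-sided, Benjamini-Hochberg over all genes, threshold 0.05), with the series as a block for times and time as a block for inhibitors before 48 h; the fit was tested on simulated data. Alternatives covered scaling, dim genes under percentile 40, probe set choice, variance prior, blocks and left-out arrays. Members and lists were chosen with earlier results of these data known. Values in every array were given for the 8 largest changes, ties included, past the threshold at 4 to 8 h and at 48 h, and for IFIT1, IFIT3, ISG15, IRF1, IRF7, IRF9, OAS1 and MX1. Up to 5 genes of each other pathway list were named per comparison, by size of change.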

Additional observations from a re-analysis of the deposited data

Results flagged for a closer look

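The 5SGlcNAc effect on IFITM1 was lower at 48 h than its mean over 2 to 24 h by a log2 difference of -0.641521 (limma adjusted p = 0.00406), a test of the difference between the 2 sets of arrays. It was the 1 member of 41 for which this test passed. The time and the set of arrays cannot be told apart here, and the effect at 24 h alone, from single arrays, left 0 members called.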

How the results depend on the processing

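No result changed sign past its threshold under any alternative run. Counts are of 41 members. For Thiamet-G against DMSO at 48 h the higher count was 0 as reported, 1 with quantile normalization, 1 with median centring, 3 with a trended, robust variance and 5 with dim genes left out, and the lower count of 1 became 2 with that variance and 2 with dim genes left out. For 4 to 8 h against 0 h the lower count of 3 became 5 with dim genes left out, 5 with the robust variance, and 1 without _x_at probe sets, with every probe set tested or with no series block. At 6 h the lower count of 2 became 4 with dim genes left out, 4 with the robust variance and 1 with no series block. The effect difference gave 2 lower with dim genes left out, 4 with the robust variance and 0 with the effect at 24 h alone. For 24 h against 4 to 8 h the higher count of 3 became 1 with no series block. The cause was not tested, other than fewer arrays where arrays were left out.

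Without the DMSO series, 4 to 8 h gave 2 higher and 0 lower, 24 h against 4 to 8 h 0 and 6, 4 h 0 higher, 6 h 2 and 0, 8 h 0 and 0, and 24 h against 0 h 1 and 5. Without the 5SGlcNAc series, the same comparisons gave 4 and 0, 1 and 1, 0 higher, 1 and 0, 1 and 0, and 1 and 3. Without the Thiamet-G series, 4 to 8 h and 6 h gave 0 lower, 24 h against 4 to 8 h 1 higher, 8 h 2 higher and 0 lower, and 24 h against 0 h 4 lower. Added after seeing the data, leaving out both 4 h arrays of high ACTB difference gave 0 lower at 4 to 8 h, 0 higher for 24 h against 4 to 8 h, 5 higher at 4 h, 1 lower at 6 h and 5 higher at 24 h against 0 h. Also added, leaving out all arrays of 4 h gave 1 higher for 24 h against 4 to 8 h, 1 lower at 6 h and 5 higher at 24 h against 0 h.

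Leaving out 1 array at a time, the lower count at 48 h ranged from 12 to 19 for 5SGlcNAc against DMSO, from 16 to 26 against Thiamet-G and from 0 to 1 for Thiamet-G against DMSO, whose higher count ranged from 0 to 2. The higher and lower counts ranged from 5 to 10 and 0 to 5 at 4 to 8 h, from 0 to 3 and 4 to 18 for 24 h against 4 to 8 h, from 5 to 10 and 0 to 4 at 6 h, from 2 to 5 and 0 to 3 at 8 h, and from 3 to 5 and 5 to 10 at 24 h against 0 h, and the higher count at 4 h from 3 to 8. The IRF7 call for Thiamet-G was lost without DMSO replicate 2, DMSO replicate 3 or Thiamet-G replicate 1. With the replicate block the lower counts were 16, 20 and 1 for 5SGlcNAc against DMSO, 5SGlcNAc against Thiamet-G and Thiamet-G against DMSO. Deviations of same-numbered arrays correlated at -0.332 to 0.172. Whether same-numbered arrays shared a culture is not stated, and with so few arrays a group these correlations cannot decide it.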
